A study of Anopheles gambiae with 60 samples.

Results

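The Malpighian tubule-restricted probe sets described here are 108 of the 16884 Anopheles gambiae probe sets on the array, those whose identifiers start with Ag. They were chosen from the arrays themselves: with each tissue taken at the higher of its female and male group means, a probe set was kept where its tubule level was at least 7 on the log2 scale (an intensity of 128) and lay at least 3 (8-fold) above its level in each of the other 7 dissected tissues, namely salivary gland, midgut, carcass, head, ovary, testis and male accessory gland. Whole body took no part in the choice. The tubule levels and the gaps to other tissues are therefore a description of what was chosen, and no test was made on them.

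MozAtlas is a tissue atlas of the adult malaria mosquito, made with 60 Affymetrix arrays of total RNA in 15 groups of 4 replicates. Tubules, whole body, salivary gland, midgut, carcass and head were each profiled in females and in males, and ovary, testis and accessory gland in one sex. The females were unmated and had taken a blood meal, the males were siblings of matched age, and each replicate pooled tissue dissected at 24, 48 and 72 h. The sample labels give both sexes as 5 days old and sampled after a blood meal, whereas the methods describe a blood meal for the females only, at 3 days of age. No strain, genotype or treatment other than feeding differed between groups, so, following the methods, females and males differ in feeding as well as in sex and the 2 cannot be told apart. Each replicate is a pool of animals, so p-values measure the spread between pools. Intensities were normalized within a tissue across both sexes and not between tissues, so that a level in tubules and a level in another tissue are set side by side only. In tissue arrays, fewer cells of a type and less RNA per cell cannot be told apart.

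Malpighian tubules are the excretory and osmoregulatory organ of insects, blind-ended epithelial tubes that open at the junction of midgut and hindgut. A V-type proton ATPase in the apical membrane of the principal cells energizes the transport of potassium and sodium into the lumen, chloride follows, in many insects through the stellate cells, and water follows the ions. The organ also clears urate, toxins and other organic solutes, and in female mosquitoes it carries the rapid diuresis that disposes of the water and salt of a blood meal. The probe sets are not assigned to these functions here, because the array's identifiers name a chromosome arm, a locus number and a region rather than a gene. For 14 of the 108 a gene identifier could be joined by matching the arrays to gene-level values published with the study, and these are named by probe set and gene.

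**Figure D1:**
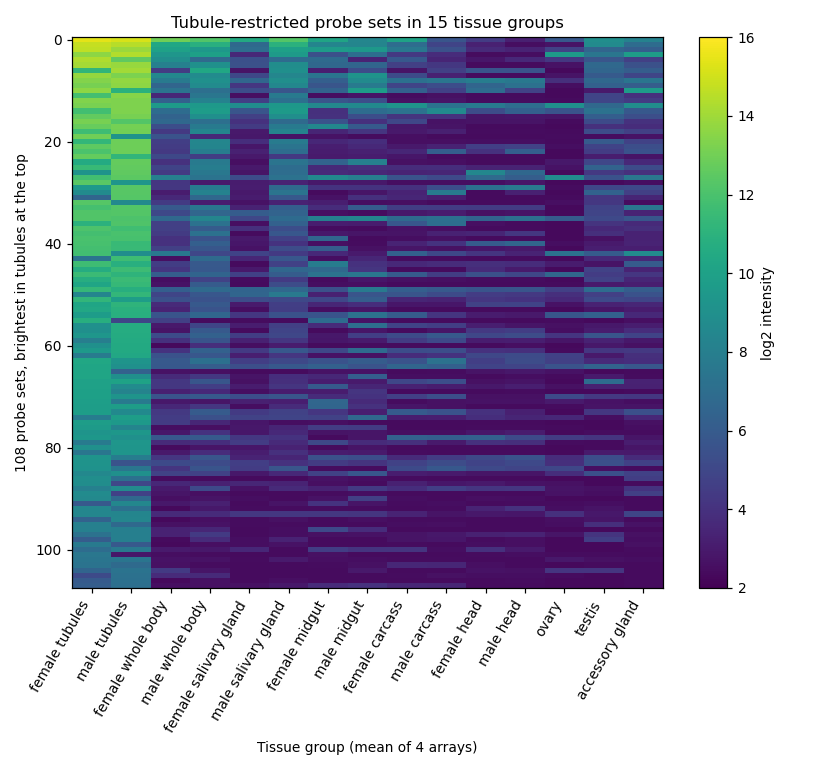
Mean log2 intensity (colour, 4 arrays) of the 108 tubule-restricted probe sets in 15 tissue groups, with tubules at the left and the brightest probe set at the top. Male salivary gland and male whole body are brighter than the female groups of those tissues for many of the brightest probe sets.

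The tubule-restricted transcripts ran from moderate to very high intensity in tubules. Their tubule level ran from 7.12 to 15.43 with a median of 10.85 (log2 intensity), 69 of the 108 were at 10 or above, and 38 were at 12 or above. The gap to the next tissue ran from 3.03 to 10.03 with a median of 4.61, that is from 8.16-fold to 1047-fold with a median of 24.4-fold. In 37 of the 108 (34.3%) every other dissected tissue lay below 5, an intensity of 32 that is used as the limit of detection throughout. The salivary gland was the next tissue for 41 probe sets (38.0%), the midgut for 31, the carcass for 12, the testis for 9, the head for 8, the accessory gland for 6 and the ovary for 1.

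The brightest was Ag.2R.3694.0_s_at. Its log2 intensity was 15.53, 15.49, 15.32 and 15.39 in female tubules and 15.12, 15.17, 15.15 and 15.08 in male tubules, and the next tissue was the salivary gland at 12.25. Ag.3L.163.0_CDS_at followed, at 14.83, 14.71, 14.79 and 14.75 in female tubules and 14.46, 14.49, 14.48 and 14.45 in male tubules. For both the 4 female arrays lay above the 4 male arrays, but by only 0.30, and neither difference passed the test (limma, adjusted p = 0.0926 and 0.0896). Also among the 12 brightest were Ag.X.771.0_CDS_a_at at 14.66 and Ag.3R.1269.0_CDS_a_at at 14.41. Ag.3L.257.0_CDS_at, joined to AGAP010975, had 14.09 ± 0.43 in female tubules and 13.85 ± 0.11 in male tubules (SD, n = 4 each). Ag.3L.226.0_CDS_at had 13.76 ± 0.25 in female tubules and 13.23 ± 0.23 in male tubules, and 9.22 in the midgut, its next tissue.

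The widest separation from other tissues belonged to 8 probe sets, of which 1 was among the 12 brightest. Ag.2R.549.0_CDS_at stood 10.03 (1047-fold) above its next tissue, the salivary gland, where its level was 2.91. Its log2 intensity was 13.09, 13.03, 12.72 and 12.92 in female tubules and 9.03, 9.83, 9.01 and 8.86 in male tubules. Even the lowest male array therefore lay well above the 7 other tissues. Ag.3L.2108.0_CDS_at was 9.09 (546-fold) above the salivary gland, at 12.42 ± 0.33 in female tubules and 9.32 ± 0.10 in male tubules (SD, n = 4 each). Gaps of 8.40 (337-fold) for Ag.2R.1153.0_CDS_at, 8.02 (260-fold) for Ag.2R.1343.1_a_at and 7.47 (178-fold) for Ag.2R.3681.0_at came next. Ag.2R.1343.0_CDS_at had a gap of 7.42, Ag.X.448.0_CDS_at of 7.34 and Ag.2R.3273.0_CDS_at of 6.95.

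At the edges of the choice the probe sets differed little from those left out. Ag.2R.4658.0_at, Ag.3R.2090.0_CDS_at and Ag.2R.2204.1_CDS_a_at were just inside in level at 7.12, 7.17 and 7.24. Ag.2L.2441.0_CDS_at, Ag.3R.652.3_at and Ag.2R.2450.0_CDS_at were just outside at 6.93, 6.83 and 6.73. For the gap, Ag.X.222.0_CDS_at, Ag.3L.558.0_UTR_a_at and Ag.3L.232.0_CDS_a_at each had 3.03, against 2.95 for Ag.2R.1097.0_CDS_a_at, 2.95 for Ag.2L.906.0_CDS_at and 2.94 for Ag.2R.2889.0_CDS_at outside it. Applied to one sex alone, the same thresholds kept 94 of the 108 in females (of 145 passing) and 88 in males (of 103 passing). The tubules were then set against 5 other tissues in females and 6 in males, in place of 7, so these counts are not by like rules.

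The 108 probe sets fell on 99 loci, of which 91 had a single member. By the arm in the identifier, 36 (33.3%) were on 2R, 24 (22.2%) on 3L, 21 (19.4%) on 3R, 14 (13.0%) on X and 10 (9.26%) on 2L, and 3 (2.78%) had no placed arm. Over all Ag probe sets the shares were 26.3% on 2R, 14.8% on 3L, 18.8% on 3R, 8.31% on X, 20.3% on 2L and 11.5% unplaced. The share on 2L was thus the one furthest below that of the array among the placed arms, as counts with no test.

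In 8 loci more than one probe set was tubule-restricted, which gives repeated readings of one locus that are not independent. At Ag.2R.1343 the first probe set had 14.32 in female tubules and 12.56 in male tubules, and the second 12.30 in female tubules and 8.62 in male tubules. At Ag.2R.1609 the 3 probe sets were all lower in females, by differences of -1.51, -2.04 and -2.53. At Ag.3L.558 both were higher in females, by 2.92 in the UTR probe set and 4.02 in the CDS probe set. Ag.2R.2140 was the locus whose probe sets parted, with -1.66 for Ag.2R.2140.0_CDS_a_at and 0.37 for Ag.2R.2140.1_CDS_at. A further 21 probe sets of these 99 loci were not tubule-restricted, and 12 of them were detected in tubules. The brightest of those, Ag.3L.187.0_UTR_a_at at 14.62 and Ag.3L.815.0_CDS_at at 13.70, missed the gap with 2.22 and 2.36.

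Before sex was compared the tubule arrays were examined for other tissues, through the probe sets restricted to each tissue by the same rule. In female replicate 3, 24 of the 67 salivary gland-restricted probe sets were at 5 or above, against 5, 2 and 3 in the other female tubule replicates and 4, 6, 6 and 8 in the male ones. Midgut-restricted probe sets (178) at 5 or above numbered 55, 48, 23 and 54 in the female arrays and 64, 78, 63 and 80 in the male arrays. Testis-restricted probe sets (461) numbered 29, 26, 28 and 32 in the female arrays and 87, 47, 40 and 36 in the male arrays, so that male replicate 1 was the highest. Accessory gland-restricted probe sets (68) numbered 4, 4, 11 and 4 in the female arrays and 10, 15, 5 and 5 in the male arrays. Female tubule replicate 3 therefore stood apart in its salivary gland transcripts and was the highest female array for the accessory gland set. The counts of sex differences in tubules and of interactions are also given without it. The part of these other transcripts in the sex differences was not tested.

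**Figure D2:**
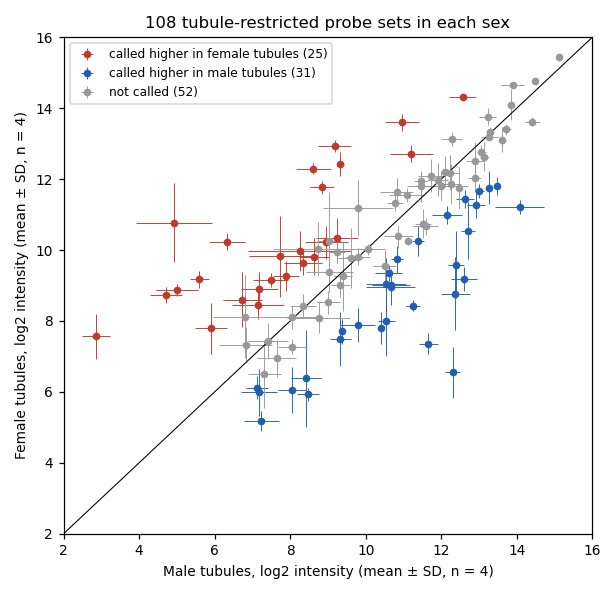
Mean log2 intensity of each tubule-restricted probe set in female (vertical) and male (horizontal) tubules, with SD bars over 4 arrays and the line of equality. Of the 108, 25 were called higher in female tubules, 31 higher in male tubules and 52 were not called.

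Of the 108 tubule-restricted probe sets, 56 differed between the sexes within the tubules. With limma on the 4412 Ag probe sets detected in tubules and a call at a log2 difference of at least 1 with a Benjamini-Hochberg adjusted p under 0.05, 25 of the 108 (23.1%) were higher in female tubules, against 7.8% of all tested. With no filter on detection, and so with p adjusted over all 16884 Ag probe sets, the count was 16. A further 31 (28.7%) were higher in male tubules, against 10.6% of all tested. Among the 2493 other Ag probe sets with a tubule level of at least 7 the shares were 9.27% higher in females and 11.4% higher in males. All 108 entered the test because the choice itself required a tubule level of 7. The choice takes the higher sex, which lets in a probe set that passes in one sex alone. By the thresholds applied within a sex, 14 of the 108 did not pass in females and 20 did not in males. With the mean of the sexes in place of the higher, 92 of the 108 remained. The shares of sex-biased probe sets are therefore raised in part by the choice and are not a like comparison. How far they were raised was not tested. The 4 female arrays all lay above the 4 male arrays for 28 of the 108 (15.3% of all tested), and the 4 male arrays all lay above the female ones for 36 (20.8% of all tested).

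The differences were large in both directions and centred near 0. The median female minus male difference was 1.87 among the 25 female-biased probe sets, -1.82 among the 31 male-biased ones and -0.07 over all 108, with a range from -5.75 to 5.84. Over all probe sets detected in tubules the median was -0.09. Of the 52 that were not called, 48 differed by less than 1 and the largest difference was 1.40 in size. No probe set had a female mean below the limit of 5, and 3 had a male mean below it. Without female tubule replicate 3 the counts were 24 higher in females and 29 higher in males.

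The female-biased probe sets ranged from near absence in males to high levels in both sexes. Ag.2L.823.0_CDS_at had 11.90, 11.20, 9.27 and 10.69 in female tubules and 4.32, 5.03, 6.29 and 4.06 in male tubules. Its groups did not overlap, and the replicate 3 arrays were the lowest female and the highest male value. The difference was 5.84 (SE 0.60, adjusted p = 8.61e-05, limma), and with the male mean set to the limit of 5 it was at least 54.4-fold higher in females. Its next tissue was the midgut, with 8.50, 7.74, 5.95 and 5.51 in females and 2.64, 2.70, 2.67 and 2.67 in males, which likewise did not overlap.

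Ag.2R.3622.1_a_at was the nearest to a female-only signal. It had 8.04, 6.65, 7.88 and 7.69 in female tubules and 3.17, 3.13, 2.38 and 2.73 in male tubules. All 4 male arrays were thus below the limit of detection, and the transcript was at least 5.92-fold higher in females (fitted difference 4.71, SE 0.31, adjusted p = 4.88e-06, limma). Ag.3L.558.1_CDS_a_at had 8.87, 8.63, 8.48 and 8.96 in female tubules and 4.72, 5.29, 4.39 and 4.44 in male tubules, with 1 male array above the limit. It was at least 13.3-fold higher in females (fitted difference 4.02, adjusted p = 1.85e-06, limma).

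Other female-biased transcripts were seen in both sexes, although Ag.X.377.0_CDS_at did not meet the rule of detection in male tubules. Ag.X.448.0_CDS_at had 10.53, 10.25, 10.21 and 9.96 in female tubules and 5.82, 6.72, 6.74 and 6.04 in male tubules, a difference of 3.91 (SE 0.24, adjusted p = 2.98e-06, limma). Ag.X.377.0_CDS_at had 8.96, 8.65, 8.83 and 9.02 in female tubules and 4.37, 4.71, 5.31 and 5.63 in male tubules, a difference of 3.86. The groups were far apart in both, and in Ag.X.377.0_CDS_at the male arrays straddled the limit. Ag.2R.549.0_CDS_at, whose arrays are given above, was 13.5-fold higher in females (difference 3.76, SE 0.22, adjusted p = 2.53e-06, limma). Ag.3L.2108.0_CDS_at was 8.57-fold higher.

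AGAP001319, read by Ag.2R.1644.0_CDS_at, was the gene with the largest female bias among the 14 that could be named. Its log2 intensity was 9.16, 9.22, 8.87 and 9.45 in female tubules and 5.92, 5.61, 5.32 and 5.53 in male tubules, so that all 8 arrays were above the limit and the groups were more than 2 units apart. The difference was 3.58 (SE 0.18, adjusted p = 1.25e-06, limma). Ag.3R.365.0_CDS_a_at (AGAP008408) was 1.38 higher in females and Ag.2L.902.0_CDS_at (AGAP006349) 1.31 higher (adjusted p = 0.00243 and 0.00481, limma). Ag.3L.258.0_CDS_s_at was among the brightest of the female-biased probe sets, with 13.84, 13.70, 13.61 and 13.27 in female tubules and 11.32, 11.38, 10.51 and 10.64 in male tubules, a 6.24-fold difference.

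The male-biased probe sets were led by Ag.UNKN.10.2_CDS_a_at, which had 7.26, 5.85, 7.06 and 6.03 in female tubules and 12.55, 12.12, 12.16 and 12.37 in male tubules. The transcript was above the limit in every array and 53.8-fold lower in females (difference -5.75, SE 0.32, adjusted p = 1.85e-06, limma). Ag.2R.3787.0_at had 7.60, 7.25, 7.59 and 7.01 in female tubules and 11.55, 11.40, 11.97 and 11.73 in male tubules. Its replicates were close in both sexes and the difference of -4.30 (SE 0.19) had the adjusted p of 7.12e-07 in limma.

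Ag.3R.382.0_CDS_at was less even, with 8.58, 7.40, 9.33 and 9.75 in female tubules and 12.50, 12.80, 12.32 and 11.87 in male tubules. Its female arrays spread over more than 2 units, and the groups stayed apart (difference -3.61, SE 0.45, adjusted p = 0.000299, limma). It was also below the limit in female carcass, where its 4 arrays lay at 2.92, 3.19, 4.21 and 3.34, and present in male carcass at 7.80, 8.78, 7.69 and 6.75. Ag.3R.1492.0_CDS_a_at had 8.86, 9.48, 8.90 and 9.48 in female tubules and 12.28, 12.37, 12.73 and 13.03 in male tubules. In head, its next tissue, the order of the sexes was the opposite, with 8.57, 8.56, 8.25 and 8.60 in females and 7.27, 6.94, 6.85 and 5.74 in males.

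Ag.2R.628.0_CDS_at was the brightest of the 8 most male-biased. It had 11.30, 11.38, 10.94 and 11.23 in female tubules and 14.62, 14.63, 13.64 and 13.40 in male tubules, a 7.26-fold lower level in females (difference -2.86, SE 0.29, adjusted p = 8.33e-05, limma). AGAP000415, read by Ag.X.979.0_CDS_at, had 8.45, 8.60, 8.46 and 8.22 in female tubules and 11.42, 11.42, 11.12 and 11.04 in male tubules. The 2 sexes were nearly 3 units apart with little spread (difference -2.82, SE 0.16, adjusted p = 1.96e-06, limma). Ag.3L.340.0_CDS_at (difference -2.81) and Ag.X.336.0_CDS_at (difference -2.60) completed the 8. AGAP002324 (Ag.2R.1533.0_CDS_a_at) and AGAP011426 (Ag.3L.662.0_CDS_a_at) were also lower in females, by differences of -1.66 and -1.35.

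The remaining named genes did not pass both limits of the sex call in tubules. AGAP006638 (Ag.2L.708.1_CDS_a_at) had 12.52 ± 0.52 in female tubules and 12.89 ± 0.24 in male tubules (SD, n = 4 each). AGAP000834 (Ag.X.533.0_CDS_at) had 11.99 ± 0.46 in female tubules and 11.90 ± 0.28 in male tubules. AGAP010048 (Ag.3R.1026.0_CDS_a_at) had 11.94 ± 0.27 in female tubules and 11.45 ± 0.16 in male tubules, and AGAP011061 (Ag.3L.376.1_CDS_a_at) had 11.54 ± 0.19 in female tubules and 11.09 ± 0.46 in male tubules. AGAP007818 (Ag.3R.858.0_CDS_at) differed by -0.88 with an adjusted p of 0.000988 in limma, short of the 2-fold limit. AGAP003587 (Ag.2R.1751.0_CDS_at) differed by 1.40 with an adjusted p of 0.0501, and AGAP007423 (Ag.2L.1140.0_CDS_at) by -0.81 with an adjusted p of 0.167.

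Whole body, which was not used to choose the probe sets, showed how much of this expression is seen without dissection. Counting a probe set as detected where at least 3 of the 4 arrays were at 5 or above, 66 of the 108 (61.1%) were detected in whole body of either sex, against 96.5% of the 2493 other Ag probe sets with a tubule level of at least 7. The choice keeps the 108, but not the 2493, low in the other dissected tissues, so a lower share is largely built into that comparison. For the sets restricted to the 7 other tissues by the same rule, the share ran from 33.0% (testis) to 94.2% (carcass). It was 64.0% for midgut and 76.6% for head. The count of 66 depends on the limit, and with detection set instead by the 95th percentile of the Plasmodium probe sets on each array it was 100. In female whole body 32 (29.6%) were detected and in male whole body 64 (59.3%), so that 34 were detected only in the male, 2 only in the female and 42 in neither. Among the brightest 36 in tubules 33 were detected in whole body, among the middle 36 it was 27 and among the dimmest 36 it was 6. An excess in male whole body was also seen in other sets chosen by the same rule. Of the head-restricted set 30.9% were detected in female and 75.5% in male whole body, and of the carcass-restricted set 65.4% in female and 80.8% in male. The midgut-restricted set had 57.3% in female and 46.6% in male, and the salivary gland-restricted set 41.8% in female and 17.9% in male.

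**Figure D3:**
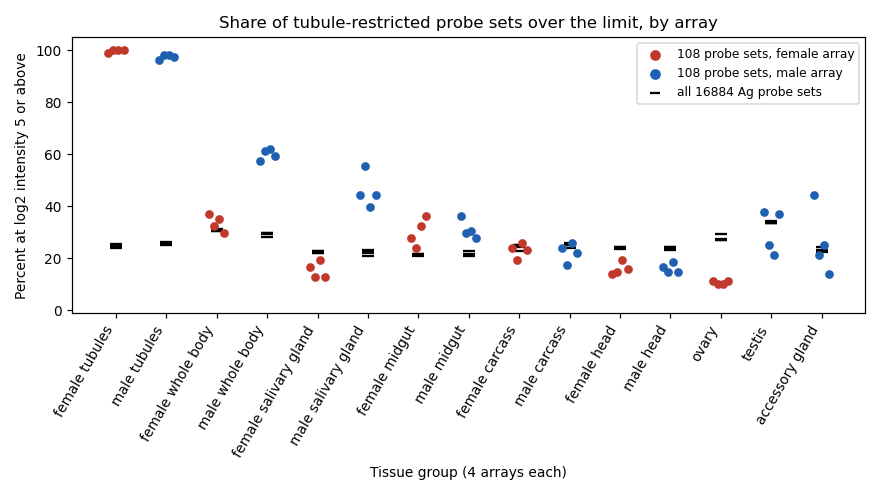
Percent of the 108 tubule-restricted probe sets at a log2 intensity of 5 or above in each array (points) and of all 16884 Ag probe sets (dashes), by tissue group. Male whole body and male salivary gland arrays lie above all female arrays of those tissues.

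The median level of the 108 in whole body was 4.34, 4.12, 4.16 and 4.09 in the female arrays and 5.56, 5.49, 6.06 and 5.90 in the male arrays. The groups did not overlap. The whole-body mean was higher in females for 25 probe sets and in males for 83, with a median female minus male difference of -0.75. Over the 2493 other probe sets bright in tubules that median was -0.16. Of the 66 tested in whole body, 3 were called higher in females (30.6% of all 5821 tested, and 20.2% of the other probe sets bright in tubules) and 43 higher in males (28.5% of all tested, and 26.5% of those others). A probe set detected only in males had to differ to enter, as 34 of these did, so the 43 is not read as a share of those tested. With no detection filter 7 of the 108 were called higher in females and 46 higher in males, against 2033 and 1833 of all 16884.

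The brightest probe sets in whole body were mostly the brightest in tubules. Ag.2R.3694.0_s_at had 13.02, 12.75, 13.39 and 12.78 in female whole body and 11.52, 11.69, 13.11 and 12.41 in male whole body, groups that overlapped. Ag.3L.163.0_CDS_at had 10.53, 10.31, 10.51 and 9.94 in female whole body and 10.67, 10.19, 11.24 and 11.33 in male whole body, which overlapped as well. At the other end Ag.2R.3622.1_a_at, Ag.X.274.0_UTR_a_at, Ag.2L.902.0_CDS_at and Ag.3L.1815.0_CDS_at stayed near the lowest values on the array, the highest of their 32 whole-body values being 3.11. Their tubule levels were between 7.57 and 9.64.

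**Figure D4:**
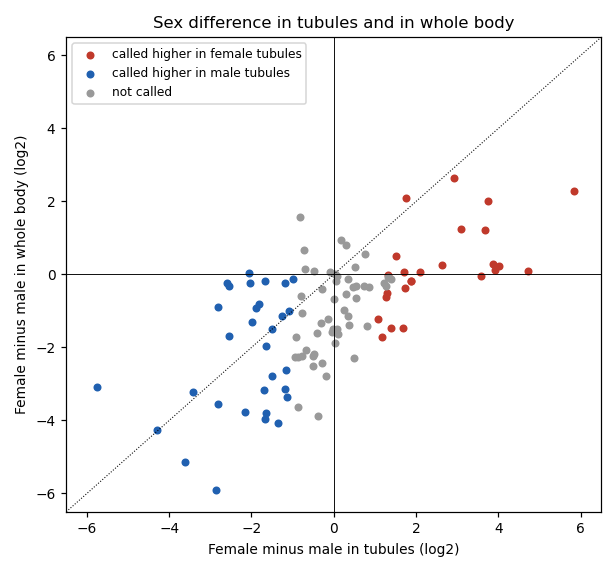
Female minus male difference (log2, group means of 4 arrays) of each of the 108 probe sets in tubules (horizontal) and whole body (vertical), coloured by the call in tubules, with the dotted line of equality. Probe sets called higher in female tubules lie mostly near 0 in whole body, where 16 of the 25 were not detected, and those called higher in male tubules lie at or below 0 with 1 exception just above it.

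Probe sets higher in male tubules were mostly higher in male whole body too, whereas most of those higher in female tubules were not detected there. Of the 31 higher in male tubules, 18 were also called higher in male whole body, none in female whole body, 3 were not called and 10 were not tested because they were not detected. Of the 25 higher in female tubules, 3 were called higher in female whole body, 4 higher in male whole body, 2 were not called and 16 were not tested. Of the 52 with no call in tubules, 21 were called higher in male whole body and none in female. The whole-body mean was higher in females for 1 of the 31 male-biased probe sets. Among the 16 female-biased ones that were not detected, those at the floor in both sexes cannot show a whole-body difference. An example is Ag.X.448.0_CDS_at, with means of 2.68 in female and 2.57 in male whole body. Others of the 16 differed below the limit, such as Ag.2L.823.0_CDS_at with means of 4.67 in female and 2.39 in male whole body. Across the 108 the differences in the 2 tissues had a Pearson correlation of 0.64, as a description over probe sets that share arrays and include those at the whole-body floor. Over the 2493 other probe sets bright in tubules it was 0.42.

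The 3 probe sets higher in females in both tissues were Ag.2R.549.0_CDS_at, Ag.2R.1343.0_CDS_at and Ag.3L.558.0_UTR_a_at. Ag.2R.549.0_CDS_at had 6.22, 5.80, 5.55 and 4.87 in female whole body and 3.73, 3.28, 3.39 and 4.00 in male whole body, with no overlap (fitted difference 2.01, adjusted p = 5.23e-05, limma). Its male arrays were all under the limit, and with the male mean set to 5 it was at least 1.52-fold higher in females. Ag.2R.1343.0_CDS_at had 9.13, 9.16, 8.27 and 9.06 in female whole body and 5.79, 7.29, 7.52 and 6.66 in male whole body (difference 2.09, adjusted p = 0.000237). Ag.3L.558.0_UTR_a_at had a male mean of 4.96, just under the limit, and was at least 6.08-fold higher in females.

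Several probe sets were clearly present in male whole body and had a female mean under the limit of 5, so that the size of the difference is a bound. Ag.2R.628.0_CDS_at had 3.97, 4.30, 4.15 and 5.36 in female whole body and 11.19, 10.78, 9.98 and 9.50 in male whole body. With 3 of 4 female arrays under the limit and all male arrays far above it, the level was at least 41.2-fold lower in females (fitted difference -5.92, SE 0.39, adjusted p = 1.41e-07, limma). AGAP006638, with no call in tubules, had 4.86, 4.00, 4.31 and 4.75 in female whole body and 8.01, 8.12, 9.02 and 8.28 in male whole body, at least 10.3-fold lower in females (fitted difference -3.88, adjusted p = 1.93e-07). By the same bound AGAP011426 was at least 10.5-fold and AGAP010048 at least 2.37-fold lower in female whole body. For AGAP007818 the bound was 1.87-fold, under the 2-fold limit of a call.

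A direct test of the difference between the 2 tissues used the interaction in limma over 6321 Ag probe sets detected in tubules or whole body. In 60 of the 108 (55.6%) the sex difference lay further towards females in tubules than in whole body, against 25.4% of all tested and 25.3% of the 2493 others bright in tubules. In 9 (8.33%) it lay further towards males in tubules, against 30.4% of all tested and 21.5% of those others. The 60 comprised 22 of the female-biased, 11 of the male-biased and 27 of the uncalled probe sets. Over the 108 the median female minus male difference was -0.07 in tubules and -0.75 in whole body. A shift towards males in whole body alone thus also counts here. The comparison sets are not kept low in other tissues by the choice, so their whole-body differences are not a like base. Not detected in whole body were 18 of the 60 and 5 of the 9, and any of them near the floor cannot show a difference between the sexes there. Without female tubule replicate 3 the counts were 61 and 9.

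Some of the probe sets concerned were detected in both tissues. AGAP001319, 3.58 higher in female tubules, had 5.27, 5.30, 5.41 and 4.67 in female whole body and 5.05, 5.19, 5.30 and 5.31 in male whole body. Its whole-body groups overlapped, and the interaction was 3.63 (SE 0.26, adjusted p = 7.68e-09, limma). AGAP008408 was higher in female tubules and lower in female whole body, where it had 4.21, 4.77, 4.06 and 3.81 in females and 5.53, 5.28, 6.07 and 5.89 in males (fitted interaction 2.86, adjusted p = 4.25e-06). All 4 female whole-body arrays were under the limit, which puts the whole-body difference at no less than 1.62-fold. These values are from the CDS probe set, and the UTR probe set of that locus showed less. Ag.3R.365.0_UTR_a_at differed by 0.72 in tubules and -0.30 in whole body, was called in neither tissue, and had an interaction of 1.03. In the other direction Ag.X.336.0_CDS_at had 7.32, 7.86, 7.63 and 8.40 in female tubules and 10.36, 10.50, 10.39 and 10.34 in male tubules. In whole body it had 5.53, 5.72, 5.50 and 5.44 in females and 5.11, 5.39, 6.47 and 6.14 in males, with overlap (interaction -2.37, adjusted p = 4.02e-05).

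The salivary gland, the most frequent next tissue, differed between the sexes in these transcripts. The number of the 108 at 5 or above was 18, 14, 21 and 14 in the female salivary gland arrays and 48, 60, 43 and 48 in the male ones. Every male array exceeded every female array. In 54 probe sets (50.0%) the 4 male salivary gland arrays all lay above the 4 female ones, against 15.5% of the 4412 Ag probe sets detected in tubules, and in 38 of the 41 whose next tissue was the salivary gland the male was the higher sex. Levels in salivary gland were used by the choice, which caps them at 3 below the tubule level, so these counts and the correlations that follow are a description and support nothing about the tissue.

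**Figure D5:**
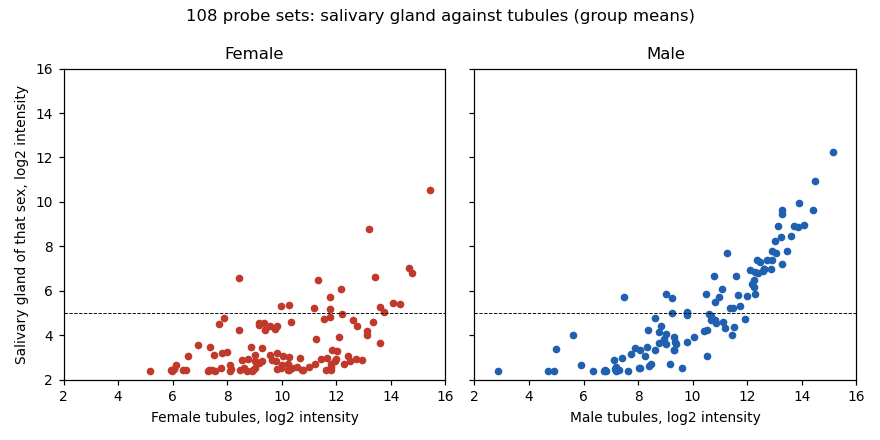
Mean log2 intensity (4 arrays) of the 108 probe sets in salivary gland (vertical) against tubules (horizontal), for females at the left and males at the right, with the limit of 5 dashed. In males the salivary gland level climbs with the tubule level, and in females most points stay below 5.

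Across the 108, the level in female salivary gland had a Pearson correlation of 0.53 with the level in female tubules, and the level in male salivary gland one of 0.87 with male tubules. The single arrays gave 0.57, 0.37, 0.60 and 0.49 in females and 0.85, 0.89, 0.82 and 0.86 in males. With whole body, where tubules are part of the sample, the correlation across the 108 was 0.75 in females and 0.88 in males. For the midgut it was 0.57 in females and 0.50 in males, and for the other groups it ran from 0.23 in female head to 0.66 in testis. Single accessory gland arrays gave 0.80, 0.52, 0.49 and 0.27 with male tubules, with 48, 23, 27 and 15 of the 108 at 5 or above. Single testis arrays gave 0.73, 0.61, 0.52 and 0.69, with 41, 27, 23 and 40 at 5 or above. Over the 2493 other Ag probe sets with a tubule level of at least 7, the salivary gland gave 0.59 in females and 0.68 in males. For those others whole body gave 0.56 in females and 0.685 in males, and midgut 0.62 and 0.76. These correlations are across probe sets that share arrays and are not independent.

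Single probe sets showed the contrast plainly. Ag.3R.1269.0_CDS_a_at, at 13.62 ± 0.13 in female tubules and 14.41 ± 0.21 in male tubules (SD, n = 4 each), had 3.45, 3.06, 4.62 and 3.41 in female salivary gland and 9.16, 10.94, 9.19 and 9.33 in male salivary gland. Ag.2R.628.0_CDS_at had 2.43, 2.42, 3.62 and 2.40 in female salivary gland and 8.85, 11.33, 7.92 and 7.82 in male salivary gland. Male replicate 2 was the highest in both. Ag.2R.3694.0_s_at, the brightest in tubules, had a female salivary gland mean of 10.52 and a male one of 12.25.

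Other sets differed in some of the male salivary gland arrays too. Carcass-restricted probe sets (52) at 5 or above numbered 11, 8, 8 and 10 in the female salivary gland arrays and 27, 11, 7 and 11 in the male ones. Head-restricted ones (94) numbered 7, 2, 4 and 4 in the female arrays and 28, 11, 12 and 5 in the male ones, and testis-restricted ones (461) numbered 17, 18, 16 and 19 in the female arrays and 95, 70, 49 and 61 in the male ones. Accessory gland-restricted ones (68) numbered 3, 4, 14 and 3 in the female arrays and 25, 16, 7 and 6 in the male ones. Male replicate 1 was the highest of the male arrays for these 4 sets, and for the carcass set it was the one male array above the highest female array of 11. Midgut-restricted ones (178) numbered 42, 27, 30 and 69 in the female arrays and 56, 62, 52 and 46 in the male ones, with male replicate 2 the highest of the males, as it was for the tubule-restricted set. Ovary-restricted ones (166) overlapped between the sexes, at 32, 22, 35 and 33 in the female arrays and 35, 26, 23 and 28 in the male ones. Whether other tissues contributed RNA to the male salivary gland arrays was not tested. With the salivary gland level taken from the female arrays only, 113 probe sets were tubule-restricted.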

How the data were processed

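From 50 ng of total RNA per sample, biotin-labelled cRNA was made by a 2-cycle amplification and hybridised to Affymetrix arrays, 4 per group. Per the labels and methods, the authors made the deposited intensity values from the scans with GCRMA, normalizing within each tissue across both sexes; its version is not given in the sources used here. The values were linear and log2 was taken. All 60 columns were mapped to samples by name and 0 other columns of per-sample values were found. Array medians of probe sets are not comparable between tissues. The precision of each value is limited by the number of arrays (4 per group).

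Detection in a group required a log2 intensity of 5 or more in at least 3 of 4 arrays. Sex was compared by limma 3.58.1 (lmFit and eBayes, R 4.3.3), female minus male, on the 8 arrays of a tissue over all detected Ag probe sets, and the interaction on the 16 tubule and whole-body arrays, with Benjamini-Hochberg adjustment and calls where the adjusted p was under 0.05 and the difference at least 1. On simulated data for the 4412 probe sets of the tubule comparison, 90% of changes of 1.5 and 99% of changes of 3 (log2) were called. Same-numbered female and male tubule arrays deviated together (r = 0.15 to 0.33), against r of up to 0.19 for differently numbered ones. In whole body the same-numbered r ran from -0.01 to 0.35, against up to 0.21 for differently numbered arrays. The fits reported did not pair arrays by replicate number in either tissue, and the fit with the replicate block is an alternative.

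Named probe sets were the 12 brightest in tubules, the 8 with the largest gap, the 8 most female-biased and 8 most male-biased called without overlap, the 3 nearest each threshold on either side, the 4 highest and 4 lowest in whole body, the 4 largest interactions each way, and every one with a gene identifier. Probe sets named as sharing a locus with another were chosen after their values were seen. Gene identifiers came from matching group means to published gene-level values within 0.0006, which joined 1174 of 1352 genes and 14 of the 108 probe sets (2.95 genes matched on average in 20 shuffles). Marker and pathway lists by gene description could not be applied, since no table used here pairs probe sets with described genes, and probe sets restricted to other tissues stood in for them; the tubule label itself was therefore not checked against known marker genes. The members and lists were chosen with earlier results of these data known. Alternatives covered scaling, thresholds, detection limits, the variance model, the arrays in the fit, pairing and the leaving out of replicates.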

Additional observations from a re-analysis of the deposited data

Results flagged for a closer look

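Among 133 groups of 4 arrays of the named probe sets, 11 held an array far from the other 3. For normally spread values chance gives about 1 in 20. That rate does not hold where values are tied at the floor, so the 11 are not set against it. In tubules, Ag.X.771.0_CDS_a_at in female replicate 4 was the lowest at 14.62 against 14.67 in the others, Ag.X.663.0_CDS_at in female replicate 4 was the lowest at 5.64 against up to 6.05 in the others, and Ag.2R.549.0_CDS_at in male replicate 2 was the highest at 9.83 against 8.86 to 9.03. The other 8 were in whole body within 1 unit of the floor. Ag.X.274.0_UTR_a_at was highest at 2.63 in female replicate 3 and lowest at 2.36 in male replicate 2. Ag.2R.3622.1_a_at was highest at 2.78 in female replicate 3 and lowest at 2.43 in male replicate 1. Ag.2L.902.0_CDS_at was highest at 2.62 in female replicate 2 and at 2.66 in male replicate 4. Ag.3L.1815.0_CDS_at was highest at 2.41 in female replicate 4 and at 3.11 in male replicate 1.

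The sex difference differed between tubules and whole body by the interaction test for 69 of the 108, and the largest 4 each way were as follows. It lay further towards females in tubules by 4.62 for Ag.2R.3622.1_a_at, 3.79 for Ag.X.448.0_CDS_at, 3.79 for Ag.3L.558.1_CDS_a_at and 3.63 for Ag.2R.1644.0_CDS_at. It lay further towards males in tubules by -2.67 for Ag.UNKN.10.2_CDS_a_at, -2.39 for Ag.2L.1140.0_CDS_at, -2.37 for Ag.X.336.0_CDS_at and -2.23 for Ag.X.663.0_CDS_at. Of these 8, only Ag.2R.1644.0_CDS_at, Ag.UNKN.10.2_CDS_a_at and Ag.X.336.0_CDS_at were detected in whole body.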

How the results depend on the processing

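With a gap of at least 2 in place of 3, 184 probe sets were tubule-restricted in place of 108, and under every other rule or scaling tried there were between 72 (gap of at least 4) and 120. After quantile normalization of all arrays 90 were, 88 of them among the 108. With no detection filter 16 were higher in female tubules in place of 25, the adjustment then covering 16884 probe sets. At a log2 difference of at least 2 the counts were 12 higher in female tubules, 13 higher in male tubules in place of 31, and 25 higher in male whole body in place of 43. In whole body 7 were higher in females in place of 3, both with the limit at log2 4 and with no filter. When detection was set by the 95th percentile of each array's Plasmodium probe sets, 100 were detected in whole body in place of 66. The replicate block gave 28 higher in female and 31 in male tubules, left the whole-body counts at 3 and 43, gave 71 interactions in place of 69 and moved no count by over 1.5 times. Leaving out 1 replicate number at a time gave 102 to 111 tubule-restricted probe sets, 19 to 24 higher in female and 25 to 33 in male tubules, 3 to 4 higher in female and 42 to 47 in male whole body, 67 to 71 detected in whole body and 64 to 68 interactions. Detection then required 2 of the 3 arrays left in a group in place of 3 of 4. The counts that rest on detection are thus not by the same rule as the main ones. Leaving out female tubule replicate 3 and taking the salivary gland from female arrays alone, both chosen after seeing the data, gave 109 and 113 tubule-restricted probe sets. Quantile normalization changed the calls over all probe sets in tubules to 367 higher in females and 384 higher in males, from 344 and 466. The differences of the 16 most sex-biased probe sets stayed on the same side of the threshold in all 128 refits. These 16 were picked for large differences in the same arrays, the smallest being -2.60 for Ag.X.336.0_CDS_at against a threshold of 1. The refits therefore say nothing about calls near the threshold. The cause of the shifts in the counts was not tested. With 4 arrays a group, and values near the floor of each tissue, low transcripts have no order.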
